A study of Mus musculus with 6 samples.

Results

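Cd163, Lyve1, Folr2, Timd4, Mrc1, Cbr2, Pf4, F13a1, Fcna and Gas6 are 10 genes that mark resident, scavenging and vessel-associated macrophages. They were taken by gene symbol from the 33456 genes of the deposited tables, and each of the 10 symbols matched 1 row. Their identifiers in the files are ENSMUSG00000008845 (Cd163), ENSMUSG00000030787 (Lyve1), ENSMUSG00000032725 (Folr2), ENSMUSG00000055546 (Timd4), ENSMUSG00000026712 (Mrc1), ENSMUSG00000025150 (Cbr2), ENSMUSG00000029373 (Pf4), ENSMUSG00000039109 (F13a1), ENSMUSG00000026938 (Fcna) and ENSMUSG00000031451 (Gas6). The cells came from mouse visceral (epididymal) fat, digested with collagenase and sorted for the leukocyte antigen CD45 and the myeloid integrin chain CD11b. Single-cell RNA libraries were made from 3 samples of mice on the control diet and 3 samples of the diet group that the labels call HFD, a high-fat diet. Strain, sex, age and the length of feeding are not given in the sources used here. The labels do not tie samples 1 to 3 of a diet to different mice, and where they are repeats of 1 source the p-values reflect technical spread only. Of 2195 distinct cell barcodes, 1082 (49.3%) were listed in more than 1 sample and 370 in all 6. Each barcode was therefore counted only in the sample where it had most unique molecular identifiers (UMIs, counted RNA molecules). This left 986 control and 1128 HFD cells after a filter on cells. Values from every deposited entry, which share barcodes between samples, stand beside the main ones as the form "as deposited".

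Resident tissue macrophages are long-lived cells that take up debris, dying cells and circulating molecules. Those that lie along blood vessels of fat and other organs are known for the endocytic receptors encoded by Cd163, Lyve1, Mrc1 and Folr2. Cd163 takes up haptoglobin-hemoglobin complexes, Mrc1 (CD206) binds mannose-bearing glycoproteins and collagen, Lyve1 binds hyaluronan, and Folr2 is a folate receptor. Timd4 (TIM-4) binds phosphatidylserine on dying cells and marks self-renewing macrophages in several tissues, including the large macrophages of serous cavities. The products of Pf4 (a CXC chemokine, best known from platelets), Fcna (ficolin A, a lectin of the complement system) and Gas6 (a ligand of the receptor kinases Axl, Mertk and Tyro3) are secreted, F13a1 encodes the transglutaminase subunit of coagulation factor XIII, and Cbr2 encodes a carbonyl reductase.

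Because 8 of the 10 genes had lower levels in HFD together, the 250 bases before their start sites were read from RefSeq on the build GRCm38.p6. The table held promoters for 9 of the 10 genes (Lyve1 is named only), 11 promoters in all, with 2 each for Folr2 and F13a1. Folr2 and Gas6, which did not pass as lower, were among them. Each was searched on both strands for GAGGAA, a core of the myeloid factor PU.1, and TGCTGA, a core of the elements bound by MAF factors. GAGGAA stood in 5 of the 11 promoters and in 23.3% of 32851 promoters of the same length. TGCTGA stood in 4 of the 11 and in 16.1%. Those 4 were the promoters of Fcna and Timd4 and both promoters of Folr2, so the motif was not particular to the genes that fell. Shown are the promoters of Cd163, the receptor for hemoglobin complexes, of Mrc1 and Fcna, each with 3 PU.1 core matches, and of Timd4, with 2 MAF matches. Capitals mark the matches, and every sequence runs 5′ to 3′ along its gene. Cd163 lies at chr6:124304401-124304650 (plus strand), Mrc1 at chr2:14229164-14229413 (plus strand), Fcna at chr2:25627975-25628224 (minus strand) and Timd4 at chr11:46810549-46810798 (plus strand).
Cd163: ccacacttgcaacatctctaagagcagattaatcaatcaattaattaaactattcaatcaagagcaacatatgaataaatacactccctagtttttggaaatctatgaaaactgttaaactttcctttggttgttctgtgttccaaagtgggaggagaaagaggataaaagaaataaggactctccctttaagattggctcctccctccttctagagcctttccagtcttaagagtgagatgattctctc
Mrc1: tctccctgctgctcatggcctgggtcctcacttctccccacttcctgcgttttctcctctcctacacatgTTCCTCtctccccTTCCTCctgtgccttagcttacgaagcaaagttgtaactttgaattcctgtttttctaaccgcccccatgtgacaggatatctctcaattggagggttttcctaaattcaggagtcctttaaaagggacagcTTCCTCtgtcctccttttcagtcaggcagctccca
Fcna: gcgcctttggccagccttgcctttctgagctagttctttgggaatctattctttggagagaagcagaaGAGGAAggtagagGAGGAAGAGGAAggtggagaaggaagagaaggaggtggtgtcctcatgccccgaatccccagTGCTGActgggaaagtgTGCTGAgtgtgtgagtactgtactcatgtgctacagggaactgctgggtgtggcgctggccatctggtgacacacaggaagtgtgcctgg
Timd4: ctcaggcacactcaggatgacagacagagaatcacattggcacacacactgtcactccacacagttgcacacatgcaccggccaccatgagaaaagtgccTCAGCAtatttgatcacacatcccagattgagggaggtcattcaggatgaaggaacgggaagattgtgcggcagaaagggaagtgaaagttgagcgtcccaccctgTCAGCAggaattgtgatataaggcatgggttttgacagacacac
The Cd163 promoter holds neither motif in this window. In Fcna the PU.1 core matches lie on the coding strand, 2 of them side by side, while in Mrc1 they lie on the other strand and read TTCCTC. A match is a description of letters and shows no binding.

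The samples held 260 to 388 kept cells in control and 295 to 453 in HFD, with median depths of 6300 to 8519 and 9261 to 10079 UMIs per cell. Cells were clustered without the 10 genes, which gave 16 clusters. Clusters 0, 3, 4 and 9 were macrophage-like by their markers. Cluster 0 was led by the C-type lectin genes Cd209f, Cd209g, Cd209d and Cd209b, with Cd163, Lyve1, Cbr2 and Fcna also among its 10 leading genes. Cluster 3 was led by Spp1 and cluster 4 by Mfge8, both with Gpnmb and Mmp12 among the leading genes, and cluster 9 by the chemokine genes Ccl12 and Ccl2. Cluster 2 carried macrophage markers but was led by hemoglobin and endothelial genes, so it was left unnamed and outside the macrophage-like class. It held 9 control and 205 HFD cells. The sort did not hold myeloid cells alone: 8 fibroblast markers summed to 950.1 to 2159 CPM (the UMIs of a gene scaled to the same total in each sample) in control and 6283 to 7317 in HFD. All 12 macrophage markers were detected, and summed to 29692 to 36818 CPM in control and 45924 to 50703 in HFD.

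Across clusters the 10 genes shared 1 main site. Cluster 0 held the highest pooled level of Cd163 (465 CPM), Lyve1 (339), Folr2 (1999.5), Mrc1 (838), Cbr2 (965), Pf4 (4412), F13a1 (1199), Fcna (934) and Gas6 (609), over 281 cells. Timd4 was the exception: it stood at 25.6 CPM in cluster 0 and at 156 CPM in the 50 serous cavity macrophage-like cells of cluster 11, which carried Prg4, Alox15 and Icam2. That level rested on control 1, with 115 Timd4 UMIs and 255.8 CPM there. In cluster 11 control 2 held 19.1 CPM, under its 23.8 CPM of Timd4 in cluster 0, and no other sample held more than 3 UMIs. On those few UMIs Timd4 stood higher in cluster 11 than in cluster 0 in control 3 (96.3 and 23.5 CPM). The same held in HFD 2 (38.8 and 7.86) and barely in HFD 3 (35.2 and 34.7). In HFD 1, with 1 cell in cluster 11, it stood lower (0 and 14.8). Second to cluster 0, the levels differed by gene. Folr2 stood at 823 and 887 CPM in clusters 3 and 4, where Cd163 stood at 14.5 and 15.0 and Lyve1 at 4.57 and 3.07. Gas6 reached 472 CPM in the fibroblast-like cells of cluster 1, where every other gene of the 10 was at 106 CPM or lower. Mrc1 reached 593 and F13a1 575 CPM in cluster 7, an unnamed cluster led by the neutrophil markers S100a9, S100a8 and Retnlg, followed by Areg. Over the 16 clusters the closest pair was Mrc1 and F13a1 (Pearson r = 0.956, a description over clusters that share libraries), followed by Lyve1 and Fcna (0.956), and the most distant was Timd4 and Gas6 (0.0368).

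**Figure D1:**
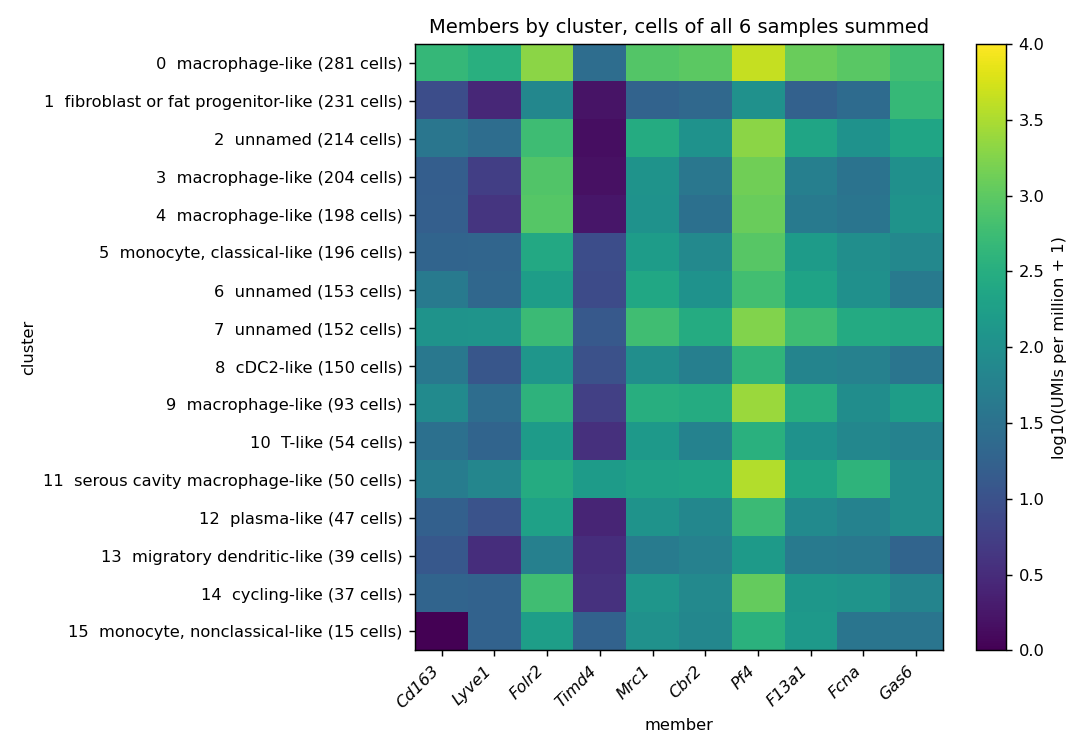
Each row is a cluster with its name and number of cells, each column 1 of the 10 genes, and the colour gives log10(CPM + 1) over the cells of all 6 samples. The Timd4 column peaks in cluster 11, where most of its UMIs came from control 1. The other 9 columns peak in cluster 0, and Gas6 also stands out in the fibroblast-like cluster.

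Summed over all kept cells, 8 of the 10 genes fell in HFD by edgeR's quasi-likelihood test (Benjamini-Hochberg adjusted p below 0.05 over all genes tested), and Folr2 and Gas6 did not pass. By the same test 17.2% of 10450 genes were lower and 15.2% higher, with a median log2 fold change of -0.0155. The share of all genes whose samples did not overlap between the diets was not counted, so lack of overlap is given as a description only. Among the endocytic receptors Cd163 fell most. It stood at 170.4, 96.1 and 140.1 CPM in control 1, 2 and 3 and at 24.4, 25.6 and 15.4 CPM in HFD 1, 2 and 3. The diets did not overlap, and control 2 was the lowest of the controls. Its log2 fold change was -2.79 ± 0.24 (SE; adjusted p = 0.00017, edgeR). Lyve1 stood at 94.2, 77.6 and 103.6 CPM in control and at 16.3, 28.7 and 18.5 in HFD, and fell by 2.29 ± 0.20 on the log2 scale (adjusted p = 0.00018, edgeR). Mrc1 stood at 328.8, 346.9 and 399 CPM in control and at 146, 159 and 166 in HFD, a log2 fold change of -1.33 ± 0.10 (adjusted p = 8.9e-05, edgeR). For both genes every control sample lay above every HFD sample.

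Folr2, the folate receptor, went apart from these. Control 1, 2 and 3 held 618, 473 and 592 CPM of Folr2 against 637, 536 and 664 in the HFD samples, so the diets overlapped. Its log2 fold change was -0.015 ± 0.13 (adjusted p = 0.945, edgeR), and the sign turned with the scaling, at 0.13 with library sizes alone. That scaling moved the median of all genes to 0.127. Its cells differed: cluster 0 gave 62.7% of control Folr2 UMIs and 9.3% of those of HFD, and clusters 3 and 4 gave 5.7% and 59.3%.

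Timd4 was low throughout, and 1 control sample stood apart. Control 1 held 47.5 CPM against 7.51 and 10.3 in control 2 and 3, and HFD held 0.876, 1.67 and 2.20 CPM. No HFD sample reached the lowest control. The log2 fold change was -4.07 ± 0.79 (adjusted p = 0.0049, edgeR), and -2.65 without control 1 (adjusted p = 0.0030). Of the Timd4 UMIs of control, 52.9% came from the serous cavity macrophage-like cells, and 115 of those UMIs were in control 1. With these cells left out, an alternative chosen after seeing the data, the log2 fold change was -3.64 (adjusted p = 0.00092). The 6 serous cavity markers summed to 19.5 to 502 CPM over the control samples and 19.3 to 100.4 over the HFD samples.

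Of the secreted proteins, Fcna and Pf4 fell, and so did F13a1. Fcna stood at 386.9, 213 and 233 CPM in control and at 67.4, 110.4 and 68.6 in HFD (log2 fold change -1.92 ± 0.27, adjusted p = 0.0010, edgeR). F13a1 stood at 370.1, 367 and 449 CPM in control and at 123, 132 and 148 in HFD (-1.70 ± 0.11, adjusted p = 8.9e-05). Pf4 fell least of the 8. Control samples held 1983, 1740.5 and 1744 CPM of it, HFD samples 1194, 1262 and 1308, with a log2 fold change of -0.68 ± 0.096 (adjusted p = 0.0011, edgeR). Markers of platelets, the other known source of Pf4, were close to absent: Gp9, Gp6 and Tubb1 had no UMI and the 7 markers summed to at most 5.50 CPM in any sample. Cbr2, the carbonyl reductase, stood at 357, 279.8 and 294 CPM in control and at 54.5, 83.9 and 64.2 in HFD, and fell by 2.35 ± 0.17 on the log2 scale (adjusted p = 8.9e-05, edgeR). For these 4 genes the diets did not overlap in any sample.

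Gas6 stood at 179, 140.7 and 197 CPM in control and at 159, 226 and 185 in HFD, and its log2 fold change was -0.0042 ± 0.15 (adjusted p = 0.988, edgeR), with overlapping diets and a sign that turned with the scaling (0.14 with library sizes alone). Its sources differed. Cluster 0 gave 59.9% of control Gas6 UMIs and 11.1% of those of HFD, and the fibroblast-like cells gave 4.2% and 28.0%. Without the fibroblast-like cells, an alternative chosen after seeing the data, the log2 fold change was -0.26 (adjusted p = 0.186).

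**Figure D2:**
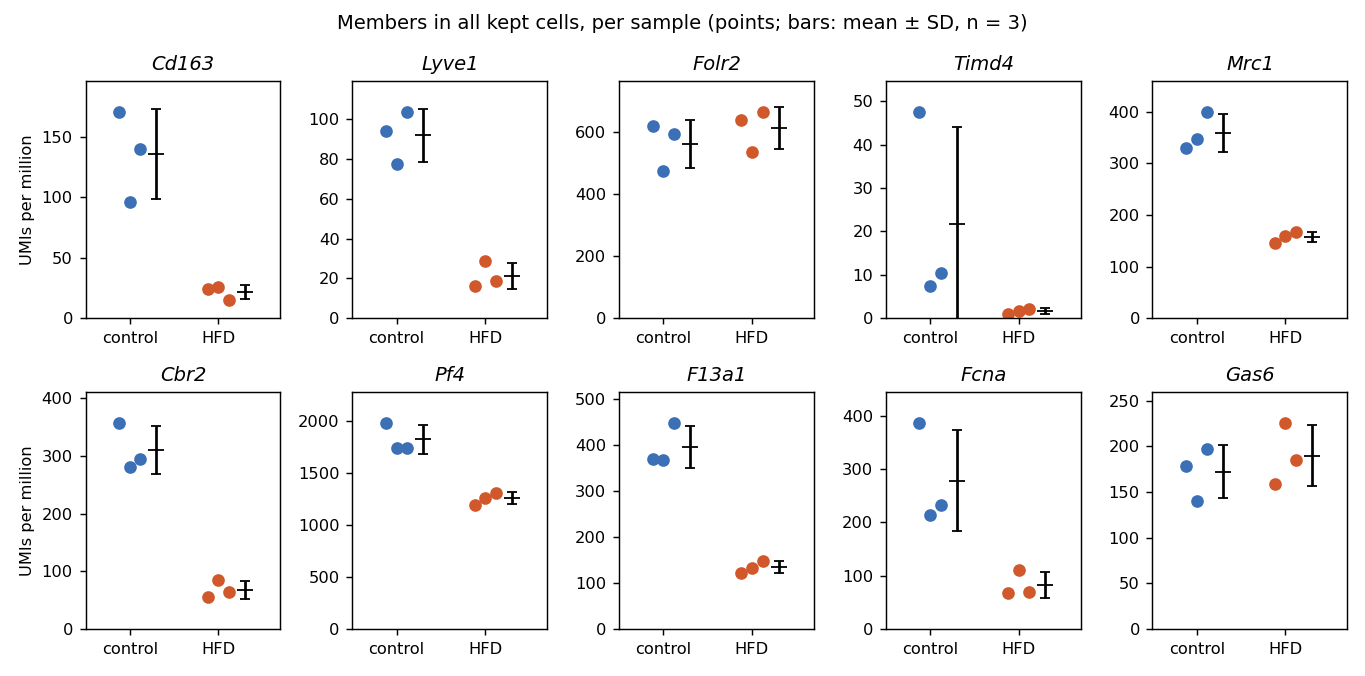
Each panel shows 1 gene in CPM over all kept cells, with a point per sample and the mean ± SD of 3 samples at its right (the lower bar of Timd4 in control runs past 0 and is clipped). The 8 genes that passed the test separate the diets without overlap, while Folr2 and Gas6 overlap. How common such separation was among all genes was not counted.

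Counted as deposited, with shared barcodes left in every sample, the same 8 genes fell and the other 2 did not pass, with smaller changes for the 8. The share of all genes called lower in that form is not given here, so the count has no background beside it. Cd163 had a log2 fold change of -2.19, Lyve1 of -1.77, Cbr2 of -1.76, Timd4 of -1.81, F13a1 of -1.28, Mrc1 of -0.97 and Pf4 of -0.56 in that form.

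A lower level over all cells can come from fewer cells with the transcript or from fewer transcripts in each such cell. To describe both, every cell of at least 3000 UMIs was thinned to 3000 UMIs. The share of cells with at least 1 UMI and the mean number of UMIs per such positive cell were then taken per sample. On the log2 scale the differences in share and in UMIs per positive cell add up to the difference in the mean. UMIs per positive cell cannot go below 1, so in a sparse gene a lower level in every cell also appears mostly as a lower share, and the split alone does not tell loss of cells from a lower level in each cell. Thinning left out 129 control and 30 HFD cells.

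The share of positive cells fell for 8 of the 10 genes (limma on log2(percent + 0.1), adjusted over 9966 genes), against a background of 10.8% of genes lower and 20.6% higher and a median difference of 0.116. Tested were genes with a mean share of at least 1% over the 6 samples. Timd4 met this through its control samples alone, since each HFD sample lay under 1%, and it is counted among the 8 with that limit. Cd163 was detected in 30.4%, 19.8% and 26.1% of control cells and in 5.05%, 5.24% and 3.63% of HFD cells (log2 difference -2.42 ± 0.20 SE, adjusted p = 0.00012). Without thinning the means were 39.4% and 12.4%. Lyve1 was detected in 19.9%, 14.1% and 19.9% of control and 3.42%, 4.92% and 3.94% of HFD cells (-2.10 ± 0.19, adjusted p = 0.00018, limma). For both receptors the lowest control sample stood above the highest HFD sample. Cbr2 went from 45.1% ± 3.0 in control to 12.8% ± 1.7 in HFD (SD, n = 3 each), F13a1 from 51.0% ± 2.3 to 20.1% ± 1.6, and Fcna from 36.3% ± 11.1 to 12.4% ± 2.6. Mrc1 went from 52.6% ± 3.0 to 29.4% ± 1.2. Timd4 went from 3.70% ± 3.02, with control 1 at 7.19% and the others at 1.96%, to 0.505% ± 0.215 (adjusted p = 0.0098, limma), and did not pass as deposited (0.053). The share of Pf4-positive cells was 74.0% ± 4.4 and 66.1% ± 1.2, a log2 difference of -0.16 ± 0.040 (adjusted p = 0.015, limma). That call was lost without HFD 1 (adjusted p = 0.060), without HFD 3 (0.051) and at 6000 UMIs per cell (0.074). Folr2 was detected in 51.8% ± 5.1 and 50.1% ± 0.4 of cells and Gas6 in 33.3% ± 5.4 and 34.7% ± 3.0, and neither passed. Folr2 passed as lower only without control 2 (-0.13, adjusted p = 0.024) and as deposited (-0.11, adjusted p = 0.038). Without thinning, the mean shares in control and HFD were 64.4% and 28.3% for Cbr2, 68.96% and 36.5% for F13a1, 54.5% and 28.5% for Fcna, 74.2% and 53.8% for Mrc1, and 87.6% and 79.9% for Pf4. They were 28.2% and 9.1% for Lyve1, 69.5% and 70.2% for Folr2, and 50.2% and 57.1% for Gas6.

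Free RNA can give UMIs in cells that do not make a transcript. In the T-like cells, which should lack these transcripts, Cd163 was detected at 3000 UMIs in 13.3% of 23 control cells and 2.38% of 20 HFD cells, Cbr2 in 25.7% and 7.88%, and Pf4 in 56.4% and 36.5%. For Lyve1 the values were 6.39% and 0.793%, for F13a1 28.3% and 2.91%, for Fcna 21.8% and 2.17%, and for Mrc1 31.6% and 11.8%. Folr2 was detected in 22.0% and 26.8% of these cells and Gas6 in 11.96% and 16.6%. The median depths were 3726 and 6759 UMIs in T-like cells and 7234 and 9735 in all kept cells. For the 7 genes other than Folr2 and Gas6 this background was lower in HFD, as the shares themselves were, and its part in the differences was not tested. In both diets the share over all cells stood above that of T-like cells for each of these 9 genes, though few T-like cells were at hand. In the type 2 dendritic-like cells (95 control, 50 HFD) Cd163 was detected in 13.6% and 5.87%, against 26.3% and 4.63% of all kept cells pooled. Lyve1 was detected there in 3.45% and 3.13%, against 18.4% and 3.98%. Of the 9 genes only Cd163, and only in HFD, stood higher there than over all cells.

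Within positive cells 3 of the 10 genes passed as lower, against 0.813% of 9845 genes. Pf4 held 8.18, 8.07 and 8.17 UMIs per positive cell in control and 5.38, 5.25 and 5.04 in HFD (log2 difference -0.64 ± 0.065, adjusted p = 0.015, limma). The diets did not overlap. Mrc1 held 2.20, 2.24 and 2.38 UMIs in control and 1.59, 1.58 and 1.59 in HFD (-0.52 ± 0.048, adjusted p = 0.014). Cbr2 held 2.68, 2.20 and 2.42 in control and 1.52, 1.69 and 1.47 in HFD (-0.64 ± 0.089, adjusted p = 0.027). With HFD 1, 2 or 3 or control 1 left out, none of the 3 passed, although their log2 differences lay between -0.70 and -0.51. Adjusted p then ran from 0.053 to 0.128. Without control 3 Cbr2 did not pass (0.062). As deposited only Mrc1 passed (-0.41, adjusted p = 0.017), with Cbr2 at -0.31 (0.317) and Pf4 at -0.29 (0.075). The other 5 genes whose share fell did not pass here: Cd163 at -0.51 (adjusted p = 0.097, limma), Fcna at -0.38 (0.079), F13a1 at -0.32 (0.088), Lyve1 at -0.17 (0.588) and Timd4 at -0.15 (0.62). Folr2 held 3.75 ± 0.37 and 3.01 ± 0.17 UMIs per positive cell (adjusted p = 0.163) and Gas6 1.81 ± 0.09 and 1.96 ± 0.24 (0.623).

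The genes differed in how sparse they were. The mean over all control cells was 0.0508 UMIs for Timd4, 0.326 for Lyve1, 0.507 for Cd163 and 6.03 for Pf4. Control UMIs per positive cell were 1.30 for Timd4, 1.82 for Lyve1 and 1.98 for Cd163, close to the floor of 1, and 8.14 for Pf4. The share of positive cells made up 94.7% of the log2 difference in the mean for Timd4, 92.8% for Lyve1, 82.7% for Cd163, 80.6% for F13a1, 79.8% for Fcna and 74.0% for Cbr2. For Mrc1 it made up 62.0% and for Pf4 20.1%. The part of sparseness in these percentages was not tested.

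**Figure D3:**
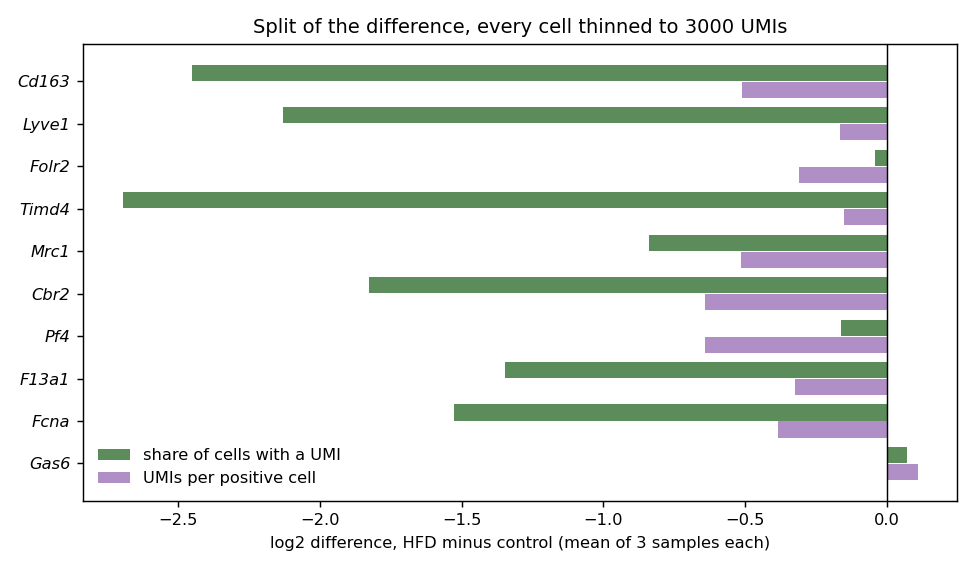
For each gene the green bar gives the log2 difference (HFD minus control) in the share of cells with a UMI and the purple bar that in UMIs per positive cell, as means over 3 samples per diet at 3000 UMIs per cell. The green bar is the longer one for Cd163, Lyve1, Timd4, Mrc1, Cbr2, F13a1 and Fcna, and the purple one for Pf4, Folr2 and Gas6.

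Cells that carried many of the 10 genes at once took a smaller share of each HFD sample. At 3000 UMIs, at least 4 of the 10 genes had a UMI in 52.3%, 40.7% and 48.8% of the cells of control 1, 2 and 3 and in 21.3%, 22.0% and 23.0% of those of HFD 1, 2 and 3. The means were 47.3% ± 5.9 and 22.1% ± 0.8 (SD, n = 3 each; two-sided exact permutation test, p = 0.1, the smallest that 3 against 3 samples allow). The difference was -25.2 points, and -16.2 as deposited. Cells with exactly 8 of the genes made up 11.02%, 6.94% and 9.76% in control and 0.673%, 2.45% and 1.91% in HFD. In control each count from 5 to 9 genes held 4.53% to 11.02% of a sample's cells, and in HFD 0.273% to 5.16%. At each of these counts every control sample stood above every HFD sample. Of the cells with at least 4 genes, 50.6% in control and 15.3% in HFD belonged to cluster 0, and 36.8% of those in HFD belonged to cluster 2. Free RNA can add to the number of genes counted in a cell. In T-like cells Pf4 was detected in 56.4% of control and 36.5% of HFD cells, and Mrc1 in 31.6% and 11.8%. The part of free RNA in these counts was not tested.

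**Figure D4:**
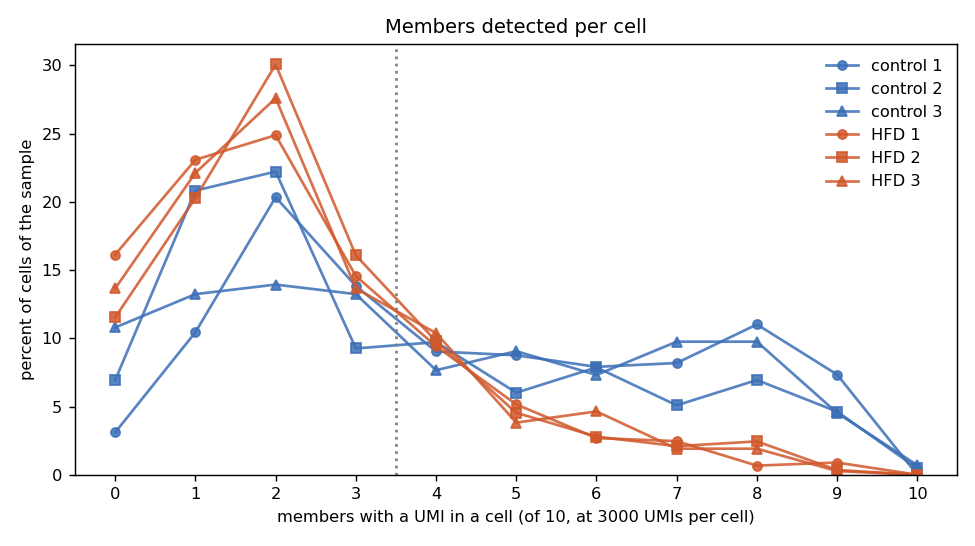
The x axis counts how many of the 10 genes had a UMI in a cell at 3000 UMIs and the y axis gives the percent of each sample's cells, with 1 line per sample and a dotted line before 4. The control lines run above the HFD lines from 5 to 9 genes.

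Co-detection around single genes also differed between the samples of the diets. A Gas6-positive control cell carried on average 5.70, 5.52 and 5.83 of the other 9 genes (control 1, 2 and 3), and a Gas6-positive HFD cell 2.79, 2.61 and 2.56. A Folr2-positive cell carried 4.91, 4.71 and 4.69 of them in the control samples, against 2.33, 2.57 and 2.45 in the HFD samples. For both genes every HFD sample stood below every control sample, although neither gene's level over all cells passed the test. Negative cells showed the same order of samples, so the lower counts were not particular to positive cells. Gas6-negative cells carried 2.982, 2.348 and 2.544 of the other 9 genes in control and 1.608, 1.823 and 1.704 in HFD. Folr2-negative cells carried 2.288, 1.675 and 1.878 in control and 1.156, 1.31 and 1.263 in HFD. Lyve1-positive cells carried 6.66, 6.89 and 6.15 of the others in control and 5.89, 4.63 and 6.17 in HFD, with overlap between the diets. Neither the difference between genes nor the part of free RNA in these counts was tested.

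To read a gene in cells chosen without it, UMIs were summed over cells with a UMI of at least 3 of the other 9 genes. This cut was loose and kept most cells. For Cd163 it kept 89.7%, 75.8% and 84.0% of the cells of control 1, 2 and 3. Of the cells of HFD 1, 2 and 3 it kept 65.6%, 67.8% and 63.2%. The same 8 genes fell, and Folr2 (0.17 ± 0.13, adjusted p = 0.374) and Gas6 (-0.16 ± 0.13, adjusted p = 0.383) did not pass (edgeR). Over the 10 fits 15.9% of genes were lower. Cd163 had a log2 fold change of -2.64 ± 0.23 (adjusted p = 0.00019), Cbr2 of -2.21 ± 0.14, Lyve1 of -2.12 ± 0.17, Fcna of -1.74 ± 0.23, F13a1 of -1.55 ± 0.12, Mrc1 of -1.17 ± 0.11 and Pf4 of -0.47 ± 0.10 (adjusted p = 0.0083, edgeR). Timd4 stood at -3.87 ± 0.78 and at -2.43 without control 1. Cells of HFD were deeper, and the part of depth in this choice of cells was not tested. With a cut of at least 6 of the other 9, a stricter alternative chosen after seeing the data, the changes of the 8 genes were smaller except for that of Pf4. F13a1 stood at -0.92 (adjusted p = 0.0066), Fcna at -0.99 (0.0036), Mrc1 at -0.81 (0.013), Lyve1 at -1.46 (0.00052), Cbr2 at -1.62 (0.00011), Cd163 at -2.21 (0.0014) and Pf4 at -0.56 (0.019), with Timd4 at -3.23 (0.0066). For Cd163 this cut kept 216, 93 and 157 control cells and 72, 69 and 82 HFD cells. The share of all genes called lower at this cut is not given here.

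In sums over the macrophage-like cells (355 control, 421 HFD) all 10 genes passed as lower, against 15.2% of 7722 genes lower and 11.8% higher (edgeR). In control Cd163 averaged 336 ± 124 CPM and in HFD 24.1 ± 3.0 (SD over 3 samples). Its log2 fold change was -3.90 ± 0.26 (adjusted p = 1.3e-05), and Lyve1 went from 212 ± 61 to 26.4 ± 9.2 CPM (-3.16 ± 0.28, adjusted p = 7e-05). Cbr2 went from 715 ± 234 to 75.5 ± 24.1 CPM (-3.37 ± 0.29), F13a1 from 804 ± 135 to 128 ± 31 (-2.77 ± 0.20) and Gas6 from 383 ± 105 to 158 ± 27 (-1.39 ± 0.20, adjusted p = 0.00080). Folr2 changed least, from 1384 ± 375 to 940 ± 157 CPM with overlapping diets (-0.67 ± 0.19, adjusted p = 0.026). Its call was lost without control 1 (adjusted p = 0.052), control 2 (0.058), HFD 1 (0.092) or HFD 2 (0.11), and with DESeq2 (0.056). Different clusters held most of this class in the 2 diets: cluster 0 held 244 of the 355 control cells, and clusters 3 and 4 held 363 of the 421 HFD cells. The class therefore sets unlike macrophages against each other. It also leaves out cluster 2, with 9 control and 205 HFD cells. That cluster gave from 4.76% (Timd4) to 30.0% (Mrc1) of the HFD UMIs of the 10 genes. Of their control UMIs it gave at most 1.28% (Pf4). As deposited all 10 genes also passed in macrophage-like sums, with Cd163 at -2.85, Mrc1 at -1.24 and Gas6 at -0.79. The share of all genes called lower in that form is not given here.

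Read inside cluster 0 alone, the 10 genes parted. Cluster 0 was built without them, and reading it by diet was chosen after seeing the data. Its leading genes Cd209f, Cd209g, Cd209d and Cd209b were themselves lower in HFD in the macrophage-like sums. An HFD cell entered cluster 0 by its likeness to such cells, so this choice of cells is not independent of diet. Its part in changes near 0 was not tested. It held 115, 46 and 83 control cells and 12, 11 and 14 HFD cells, so the HFD values rest on few cells. By edgeR 2.46% of 2566 genes were lower and 1.17% higher. Cd163 fell, from 565, 408 and 563 CPM in control to 325, 102 and 78.2 in HFD (log2 fold change -1.67 ± 0.34, adjusted p = 0.017). No HFD sample reached the lowest control, though HFD 1 stood well above the others. The call was lost without HFD 2 (-1.41, adjusted p = 0.098), HFD 3 (-1.35, 0.068) or control 3 (-1.62, 0.080), and the change was -2.58 (0.00042) without HFD 1. Cbr2 stood at 1090, 990 and 980 CPM in control and at 591, 833 and 556 in HFD, and fell by 0.71 ± 0.17 on the log2 scale (adjusted p = 0.035, edgeR). Leaving out HFD 1, HFD 3, control 1 or control 3 in turn ended that call (adjusted p from 0.090 to 0.158), as did library sizes alone (0.055).

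The other genes did not pass in cluster 0. Pf4 stood at 4527, 5052 and 4691 CPM in control and at 2882, 3065 and 4118 in HFD (-0.59 ± 0.17, adjusted p = 0.070, edgeR), and passed with DESeq2 (0.013) and without HFD 3 (0.019). Mrc1 stood at 847, 878 and 907 CPM against 739, 621 and 756 (-0.40 ± 0.15, adjusted p = 0.180). The samples of these 2 genes did not overlap between diets. Lyve1 stood at 332, 327 and 352 CPM in control and at 273, 322 and 460.4 in HFD (-0.032 ± 0.20, adjusted p = 0.961), with the HFD samples on both sides of the controls. F13a1 (0.035 ± 0.15), Folr2 (0.056 ± 0.17), Fcna (0.21 ± 0.17) and Gas6 (0.32 ± 0.18) also had overlapping diets. Timd4, at 7.86 to 34.7 CPM per sample, was too low to be tested there.

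At 3000 UMIs per cell, pooled over samples and given with no test, Cd163 was detected in 68.0% of control and 24.7% of HFD cells of cluster 0. Lyve1 was detected in 49.7% and 52.3%, F13a1 in 93.2% and 95.4%, Mrc1 in 88.5% and 86.9%, and Cbr2 in 92.1% and 83.1%. Without thinning, Cd163 was detected in 80.3% and 35.1% and Lyve1 in 62.7% and 81.1%. The thinned values cover 210 control and 37 HFD cells and the others 244 and 37, with median depths of 5747 and 9615 UMIs in cluster 0.

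**Figure D5:**
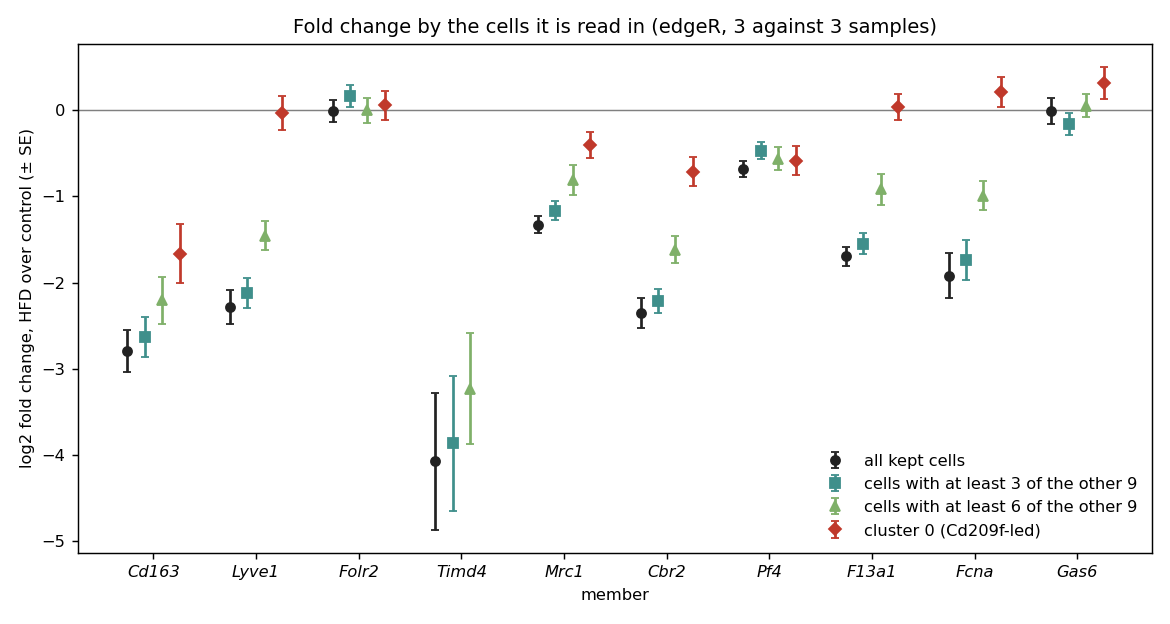
Log2 fold changes (HFD over control, edgeR, 3 against 3 samples) of the 10 genes with their SE, read over all kept cells (black circles), over cells with at least 3 (squares) or 6 (triangles) of the other 9 genes, and in cluster 0 (red diamonds, without Timd4). Cd163 lies below 0 in each set, while Lyve1, F13a1 and Fcna lie near 0 or above it in cluster 0.

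In the macrophage-like cells outside cluster 0 (111 control, 384 HFD), described with no test, Folr2 stood at 513 ± 33 CPM in control and at 854 ± 203 in HFD (SD, n = 3 each), with no overlap. Cd163 went from 66.9 ± 34.2 to 15.7 ± 2.3 CPM, Lyve1 from 22.0 ± 14.1 to 3.86 ± 0.43, F13a1 from 248 ± 52 to 47.4 ± 16 and Mrc1 from 247 ± 35 to 114 ± 11. Gas6 stood at 197, 107 and 72.2 CPM in control and at 96.3, 118 and 139 in HFD, with overlapping diets and the highest value in control 1. In cluster 9 (72 control, 21 HFD cells), also described with no test, Lyve1 stood at 31.4 ± 6.1 CPM in control and 3.55 ± 6.14 in HFD, and F13a1 at 382 ± 78 and 126 ± 94. Folr2 stood there at 466 ± 56 and 96.3 ± 87.3 CPM, and Fcna at 113 ± 55 with no UMI in HFD. The samples of these 4 genes did not overlap between diets in cluster 9, unlike in cluster 0, and HFD 2 gave 4 of its cells. Over this set too the clusters differed, since 72 of the 111 control cells were of cluster 9 and 363 of the 384 HFD cells of clusters 3 and 4.

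Of the receptors of Gas6, Axl and Mertk were measured and Tyro3 was close to 0, with 1 UMI in each diet over all cells. Axl rose over all cells, from 84.5 ± 19.9 to 154 ± 17 CPM (log2 fold change 0.74 ± 0.16, adjusted p = 0.0076, edgeR). In the macrophage-like sums it stood at 79.9 ± 18.2 and 128.5 ± 22.1 CPM (0.60 ± 0.19, adjusted p = 0.039), a call lost without control 1 (0.107), HFD 1 (0.072) or HFD 2 (0.134). Mertk fell in the macrophage-like sums, from 44.9 ± 10.8 to 20.8 ± 3.1 CPM (-1.18 ± 0.22, adjusted p = 0.0035), and did not pass over all cells (-0.31 ± 0.12, adjusted p = 0.080). As deposited, its change in macrophage-like sums was -0.28 (adjusted p = 0.241). Fibroblast-like cells held Axl too, at 251 ± 66 CPM in control and 363 ± 16 in HFD.

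Genes that share a function with the 10 were read from 7 lists. In the macrophage-like sums 20 of 27 tested genes of the resident macrophage programme fell and 2 rose (Cd36 and Nr1h3), with a median log2 fold change of -1.85 against -0.0217 over all genes. Over all cells 15 of 29 fell and 4 rose, with a median of -0.46. The list was chosen with results of these cells known, so its direction is no independent evidence. Ccl24, an eotaxin, went from 652 ± 230 to 44.0 ± 14.6 CPM (-4.03 ± 0.30, adjusted p = 2.9e-05, edgeR). Mgl2, a galactose-binding lectin of macrophages and dendritic cells, went from 442 ± 164 to 26.8 ± 13.4 CPM (-4.15 ± 0.34, adjusted p = 4.7e-05). Cd209b fell by 4.39 ± 0.34, but the Cd209 genes are close copies and reads could be split between them.

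For genes of hemoglobin, heme and iron handling, the setting of Cd163, 6 of 15 fell in the macrophage-like sums and 7 rose, with a median of 0.17, where 15.2% of all genes were lower and 11.8% higher. Over all cells 2 of 16 fell and 7 rose. Those that fell were Hmox1, Blvrb, Slc40a1, Tfrc, Ncoa4 and Cp. Hmox1, the heme oxygenase, went from 576 ± 106 to 269 ± 18 CPM (-1.21 ± 0.15, adjusted p = 0.00038, edgeR). Tfrc, the transferrin receptor, went from 73.3 ± 4.7 to 11.1 ± 0.4 CPM (-2.83 ± 0.17, adjusted p = 9.2e-06). Cp, which encodes the ferroxidase ceruloplasmin, fell by 3.28 ± 0.44 (adjusted p = 0.00052). The ferritin genes Fth1 and Ftl1 were among those that rose. Of 13 genes of apoptotic cell uptake, the setting of Timd4 and Gas6, 3 fell (Mertk, Pros1 and C1qa) and 6 rose (Axl, Mfge8, Cd300a, Itgb5, Itgav and Anxa1), with a median of 0.47, beside the same 15.2% and 11.8% of all genes. Over all cells 0 of 16 of them fell and 9 rose. Pros1 was lost without control 1, HFD 1 or HFD 3. Itgb5, an integrin chain, went from 51.1 ± 23.4 to 145 ± 19 CPM (1.43 ± 0.27, adjusted p = 0.0038). Of the genes near Folr2 and Cbr2 (folate and carbonyl metabolism) 0 of 8 passed, and of those near Lyve1 (hyaluronan) 0 of 3. Over all cells 1 of 13 and 1 of 7 fell and 3 and 4 rose, with medians of 0.026 and 1.08, while 17.2% of all genes were lower and 15.2% higher. Near Mrc1 and Fcna (mannose, ficolin and collagen uptake) 1 of 4 fell (Clec4n) and 1 rose (Ctsk), and over all cells 0 of 6 fell and 3 rose. Single samples decided both calls: Clec4n was lost without control 2, and Ctsk without control 2, HFD 1 or HFD 3.

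Outside the 10, the genes whose levels over the 16 clusters were most like their mean were Tfrc (Pearson r = 0.951), Bmp2 (0.911), Rell1 (0.892), Zcchc6 (0.888), Ednrb (0.885), Cltc (0.878), Alox5 (0.875), Aoah (0.873), Fam213b (0.862) and Plekhg5 (0.862). These are correlations over clusters that share libraries, given as a description. Bmp2 encodes a bone morphogenetic protein and Ednrb an endothelin receptor. In cluster 0 Bmp2 stood at 116 CPM, Ednrb at 368, Cltc, the clathrin heavy chain, at 439 and Tfrc at 97.9. Of the 10 genes themselves Lyve1 was closest to the mean (0.957), which includes it, and Timd4 (0.555) and Gas6 (0.565) were the farthest.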

How the data were processed

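CD45+CD11b+ cells of mouse visceral fat were measured by single-cell RNA sequencing in 3 control and 3 HFD samples. The authors deposited UMI counts per gene and barcode, 1 matrix per sample. The submitters' processing notes name Cell Ranger, Seurat 2.4 and the build mm9, with no role or order. The aligner's settings and annotation are not given in the sources used here. The 10 genes, the lists and the tests were chosen with earlier results of these data known. Leaving the 10 genes out of clustering, the rules for naming clusters and the alternatives said to be added were chosen after seeing the data.

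Each barcode was kept in the sample with most UMIs, if it had at least 200 genes and at most 10% mitochondrial UMIs. This removed 81 of 2195 barcodes. Cells were clustered with scanpy 1.11.5 and leidenalg 0.10.2 (UMIs scaled to 10000 per cell, 2000 variable genes, 30 components, 20 neighbours, resolution 1) and named from 24 marker lists. A class name needed at least 3 markers, more for longer lists, raised over all other cells. It also needed 3 markers among the 10 leading genes, or a mean log2 ratio of its markers of at least 1.2. In the latter case that of the macrophage markers had to lie under 0.8. Macrophage-like needed 6 of 12 markers raised over the median of clusters named otherwise, or 9 to replace another name. It was withdrawn where the leading genes held more markers of another class. No doublet caller was run, so doublets may be among the cells. UMIs were summed per sample and set of cells and tested with edgeR 4.0.16 (quasi-likelihood, TMM scaling, its filter on low counts). Shares of cells as log2(percent + 0.1), and log2 UMIs per positive cell, were taken at the expected value of thinning each cell to 3000 UMIs and tested with limma 3.58.1. Genes entered these tests with a mean share of at least 1% over the 6 samples. UMIs per positive cell also needed a positive share in every sample. All adjusted p-values are Benjamini-Hochberg over all genes tested, with a threshold of 0.05, and R was 4.3.3. CPM, UMIs scaled to the same total in each sample, were taken over the summed cells. The text names each of the 10 genes, up to 3 genes with the smallest p of each list where their calls held, the receptors of Gas6, and the 10 genes most like the mean of the 10 over clusters, taken from log2(CPM + 10) of genes with at least 50 CPM in a cluster. Of 291 list symbols 5 were matched by an older name and 1 was not found. The list on coagulation and transglutaminase is not reported here. Scripts were tested on simulated data. Alternatives were DESeq2 1.42.0, library sizes alone, no filters, a replicate block, other thinning depths and cuts, every entry as deposited, resolution 0.5 and leaving out each sample. Promoters came from RefSeq on GRCm38.p6, another build than that of the files, and were matched by symbol.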

Additional observations from a re-analysis of the deposited data

How the results depend on the processing

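The count of 8 lower genes of 10 held in whole-sample sums and in cells chosen by the other 9 genes under every alternative run. In macrophage-like sums it ran from 9 to 10, and for the share of positive cells from 7 to 9, when 1 sample was left out. The difference in cells with at least 4 genes ran from -28.4 to -22.7 points with 1 sample left out. It was -19.9 points at 6000 UMIs per cell and -16.2 as deposited. In cluster 0 the 2 calls became 1 with library sizes alone and 0 to 2 with 1 sample left out. For UMIs per positive cell the 3 calls became 1 as deposited, 0 with the replicate block and 0 to 3 with 1 sample left out. The 17 related genes higher in macrophage-like sums became 9 to 20 with 1 sample left out. The cause of these moves was not tested. Same-numbered samples did not deviate together (correlations of -0.157, -0.0689 and -0.121), and no sample correlated best with its own number. These correlations gave no sign of pairing by number. With the replicate block 8 whole-sample and 10 macrophage-like calls were made, as without it. Over all cells 1302 of 10450 genes were lower with the block and 1796 without it.

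Signs turned for genes near 0. Folr2 over all cells was 0.015 with DESeq2, 0.13 with library sizes alone, 0.0041 without the filter on low counts, 0.15 without fibroblast-like cells and -0.12 to 0.083 with 1 sample left out. Gas6 over all cells was 0.026, 0.14 and 0.015 under the first 3 of these, 0.055 as deposited and -0.14 to 0.12 with 1 sample left out. In cluster 0 Lyve1 was 0.056 with library sizes alone and -0.27 to 0.14 with 1 sample left out, Folr2 -0.057 and F13a1 -0.078 without the filter, and -0.13 to 0.18 and -0.054 to 0.12 with 1 sample left out. In cells of the other 9 genes Folr2 was -0.044 as deposited and -0.0033 at a cut of 6, and Gas6 0.082 and 0.053 at cuts of 5 and 6. The share of Folr2 was 0.15 at 6000 UMIs and -0.13 to 0.0047 with 1 sample left out, and that of Gas6 -0.049 at 1500 UMIs and -0.069 to 0.16. UMIs per Timd4-positive cell were 0.29 as deposited. Pros1 over all cells was -0.002295 without the filter on cells, -0.20 without fibroblast-like cells and -0.080 to 0.092 with 1 sample left out. As deposited, Shmt2 was 0.018 and Cbr4 -0.0031 in macrophage-like sums, where Cd44 ran from -0.10 to 0.48 and Hyal1 from -0.44 to 0.014 with 1 sample left out. All these values are log2 differences. Of the counts and shares under alternatives, 128 were labelled as unchanged and 14 as moved. For cells with at least 4 genes that label asked only for the same sign, so the smaller difference as deposited counted as unchanged. Of the single-gene rows 978 kept sign and call, 42 turned sign, 57 lost a call and 25 gained one. Cluster 0 held 37 HFD cells, which limits what depth can show there.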
